A study of Mus musculus with 58 samples.

Results

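The response to a high dose of benz(a)anthracene (BaA) was compared between lung and forestomach, to ask for which genes the difference between dosed and control mice was not the same in both tissues. The quantity is an interaction: the D3 minus D0 difference in lung, minus the D3 minus D0 difference in forestomach. It was formed from the 19 arrays of these tissues at D0 and D3, of 58 arrays in the series. D0 mice received olive oil alone (0 mg/kg-bw/day) and D3 mice received BaA in olive oil at 80 mg/kg-bw/day. Lung was represented by 5 D0 mice (1 to 5) and 5 D3 mice (16 to 20), and forestomach by 4 D0 mice (1 to 4) and 5 D3 mice (16 to 20). The forestomach of mouse 5 was not analysed here. All were male Muta™Mouse animals of about 10 weeks, a strain with a bacterial transgene in which mutations can be scored, and D0 and D3 mice alike carried it. Dosing was by oral gavage for 28 days, and tissues were taken 72 h after the last dose. Equal mouse numbers mark 1 animal, so 9 mice gave both tissues.

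BaA is a polycyclic aromatic hydrocarbon. Compounds of this class bind the aryl hydrocarbon receptor (AhR), a ligand-activated transcription factor that switches on the cytochrome P450 genes Cyp1a1 and Cyp1b1. These enzymes turn the hydrocarbons into reactive forms that can bind DNA, and DNA damage in turn activates the tumour suppressor p53. The forestomach, a squamous-lined pouch, meets a gavaged compound first, whereas the lung is reached through the blood.

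Each array compared tissue RNA (Cy5) with a reference RNA pooled from mouse cell lines (Cy3), and the measured value is the log2 ratio of both. A value 1 unit higher is a doubling, and differences between groups are given in the same log2 units. Probes were kept where the Cy5 spot passed the scanner's background test on 4 or more arrays in both tissues, which left 26618 probes. Calls required a fold of 1.5 or more (0.585 on the log2 scale) and an adjusted p no higher than 0.05, from limma's moderated test with Benjamini-Hochberg adjustment over these probes. Errors are standard errors (SE) of that fit.

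The tissues carried their own markers, but some arrays carried those of neighbouring tissue as well. Over 12 genes of lung epithelium the mean log2 ratio was 5.18 to 5.61 on the lung arrays and 0.15 to 0.58 on the forestomach arrays. Over 13 genes of squamous epithelium it was 3.76 to 4.36 in forestomach. In lung it lay between -0.53 and 0.03, except for mouse 5 at D0 (3.49) and mouse 16 at D3 (1.84), whose arrays were also high in skeletal muscle markers (5.18 and 1.73). In forestomach, 13 markers of the glandular stomach averaged 0.55 to 0.81 in D0 mice 1, 3 and 4 but 5.29 in D0 mouse 2. At D3 they averaged 5.23 in mouse 19, 5.46 in mouse 20, 2.74 in mouse 17, and 1.29 and 0.97 in mice 16 and 18. Mice 2, 19 and 20 were hybridised on 1 slide, which also had the lowest share of spots above background (38.4% to 42.1%, against 52.4% to 69.2% on the other forestomach slides). Fat markers averaged 3.09 to 3.81 in forestomach D0 mice 1, 3 and 4, 0.18 in D0 mouse 2, and 0.26 to 2.10 at D3. Counts are therefore given with and without these arrays. In whole tissue, fewer cells of a type and less RNA per cell cannot be told apart.

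**Figure D1:**
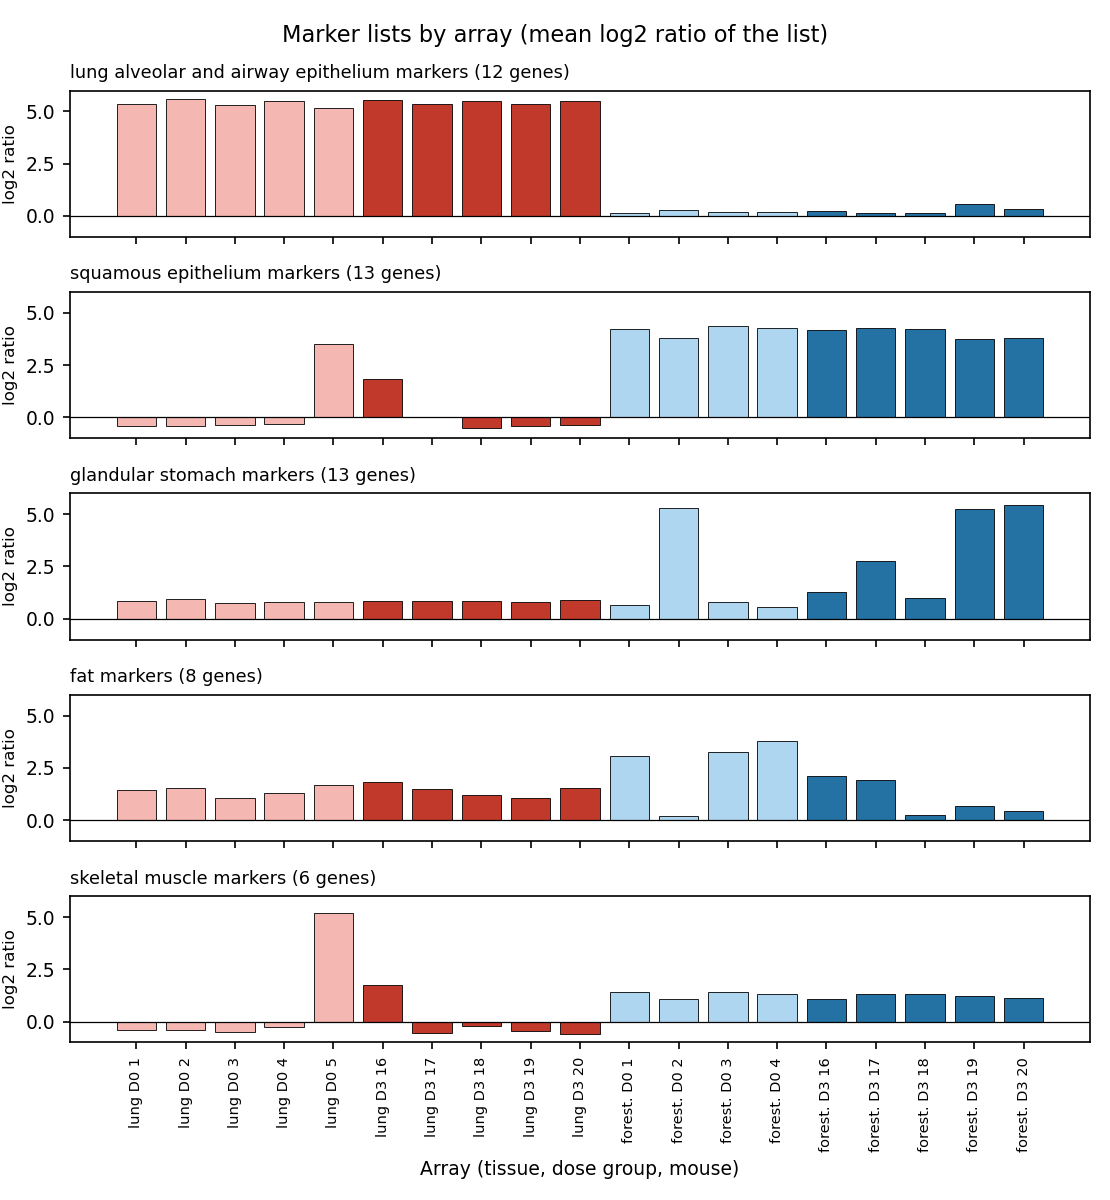
Mean log2 ratio of tissue over reference RNA (vertical axis) for 5 marker lists on each of the 19 arrays (horizontal axis, by tissue, dose group and mouse number). Glandular stomach markers reach 5.23 to 5.46 on 3 forestomach arrays, and squamous and skeletal muscle markers stand high on the lung arrays of mice 5 and 16.

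The high-dose difference was not the same in both tissues for 34 of 26618 probes (0.128%). For 28 of them the change was more positive in lung, and for 6 it was more negative. At an unadjusted p under 0.05 there were 2100 probes (7.89%). By single tissue, 426 probes were called in lung (1.6%), 266 higher and 160 lower at D3, against 10 in forestomach (0.0376%), 3 higher (0.0113%) and 7 lower (0.0263%). Of the 34 probes, 27 were also called in lung, 2 in forestomach, 5 in neither tissue and 0 in both. The forestomach difference of 29 of the 34 lay between -0.25 and 0.25. Within mice, the lung minus forestomach difference of D3 mice did not overlap that of D0 mice for 33 of the 34, against 2.89% of all probes. Lung groups did not overlap for 30 of the 34 (7.86% of all probes), nor forestomach groups for 5 (2.13%). These overlaps come from the same arrays as the calls, so they describe the members and do not add evidence.

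The count rested on the arrays included. Leaving out forestomach mice 2, 19 and 20 gave 59 probes, 23 of them among the 34. Leaving out lung mice 5 and 16 gave 23 probes, 17 of them among the 34. Leaving out both sets and forestomach mouse 17 gave 20, with 7 of the 34. Leaving out 1 array at a time gave 4 to 70 probes, the lowest without forestomach D0 mouse 1 and, equally, without forestomach D0 mouse 4, and the highest without forestomach D0 mouse 2. With the mouse as a random block 39 probes were called, and with the mouse as a fixed block, which rests on the 9 mice with both tissues, 0 were called (smallest adjusted p = 0.0595, 1859 probes at an unadjusted p under 0.05).

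**Figure D2:**
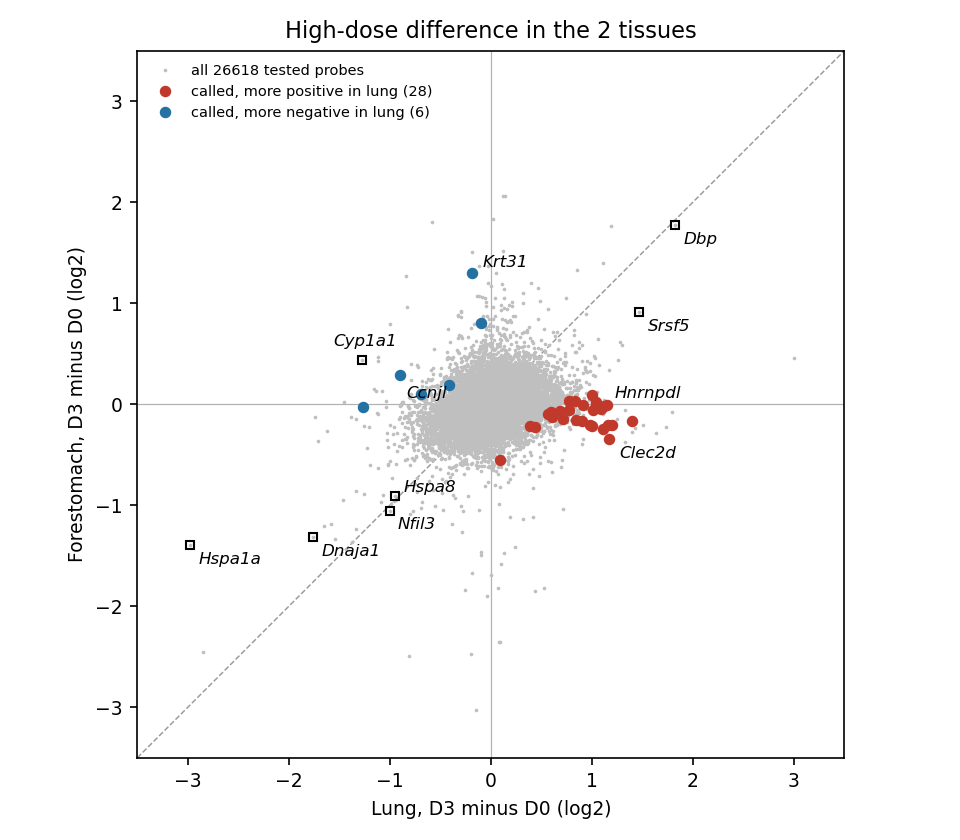
D3 minus D0 difference in lung (horizontal) against forestomach (vertical), in log2 units, for all 26618 tested probes, with equality as the dashed line. Of the 28 probes called more positive in lung (red), an intergenic interval has a forestomach difference of -0.55. The others lie to the right, at forestomach differences from -0.35 (Clec2d) to 0.09 (Pkn3). The 6 called more negative in lung are blue, and open squares mark list genes described in the text.

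By representative probe, the brightest of a gene, 19 of 13321 genes were called (0.143%), 15 more positive and 4 more negative in lung. By single tissue, 231 genes were called in lung (1.73%) and 5 in forestomach (0.0375%), 2 higher (0.015%) and 3 lower. Of the 19, Hnrnpdl, Gm9495 and Krt31 kept the call when any single array was left out.

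Hnrnpdl encodes an RNA-binding protein of the heterogeneous nuclear ribonucleoprotein family, which takes part in processing messenger RNA. In lung its log2 ratio was -2.13, -2.15, -2.28, -2.08 and -2.10 in D0 mice 1 to 5, and -1.20, -1.14, -1.08, -0.60 and -1.12 in D3 mice 16 to 20. Forestomach values were -1.33, -1.38, -1.67 and -1.54 in D0 mice 1 to 4 and -1.52, -1.50, -1.49, -1.42 and -1.56 in D3 mice 16 to 20. All D3 lungs thus lay above all D0 lungs, with mouse 19 highest, while the forestomach groups overlapped. The lung difference was 1.12 ± 0.10 (SE), the forestomach difference -0.02 ± 0.10 and the interaction 1.14 ± 0.14 (adjusted p = 0.00318). On each of the 3 lung slides the D3 arrays were higher, by 0.97, 1.68 and 0.99, and on the 3 forestomach slides the difference was -0.18, 0.11 and -0.11. A second Hnrnpdl probe gave an interaction of 0.76 ± 0.13 (adjusted p = 0.0229). Without the 3 forestomach arrays high in glandular markers the interaction of the first probe was 1.11 (adjusted p = 0.021).

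Gm9495 is a gene model without an established role. Its log2 ratio in lung was -0.26, -0.46, -0.51, -0.34 and -0.36 at D0 and 0.65, 0.47, 0.59, 1.08 and 0.46 at D3. In forestomach it was -0.28, -0.23, -0.32 and -0.39 at D0 and -0.34, -0.39, -0.37, -0.11 and -0.23 at D3. The lung groups were apart and the forestomach groups overlapped, with an interaction of 1.02 ± 0.15 (adjusted p = 0.0133). It was well above background on only 3 arrays of each forestomach group, so its forestomach level is close to the lower limit of the measurement.

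Krt31, a type I hair keratin, was called in forestomach and not in lung, as was the unnamed transcript XM_900959. Its log2 ratio in forestomach was 0.96, 0.60, 0.81 and 0.95 at D0 and 1.99, 2.12, 2.24, 2.03 and 2.26 at D3. In lung it was 0.22, 0.12, 0.06, -0.34 and -0.24 at D0 and -0.18, -0.12, -0.30, -0.10 and -0.40 at D3. All D3 forestomachs were higher than all D0 forestomachs, and the lung groups overlapped. The forestomach difference was 1.30 ± 0.12, the lung difference -0.18 ± 0.11 and the interaction -1.48 ± 0.16 (adjusted p = 0.000541). On the 3 forestomach slides D3 was higher by 1.10, 1.36 and 1.54. Without forestomach mice 2, 19 and 20 the interaction was -1.39 (adjusted p = 0.00511). The Cy3 signal, which comes from the same reference RNA on all arrays, also shifted for this probe (interaction -0.54, adjusted p = 0.036), and the Cy5 signal alone gave -1.63. A Cy3 interaction at an adjusted p of at most 0.05 was found for 3 of the 34 probes (0.274% of all probes), the others being XM_900959 (-2.12) and a probe of a long intergenic interval on chromosome 5 (-1.49). Their ratios are thus measured against a reference signal that was not constant.

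**Figure D3:**
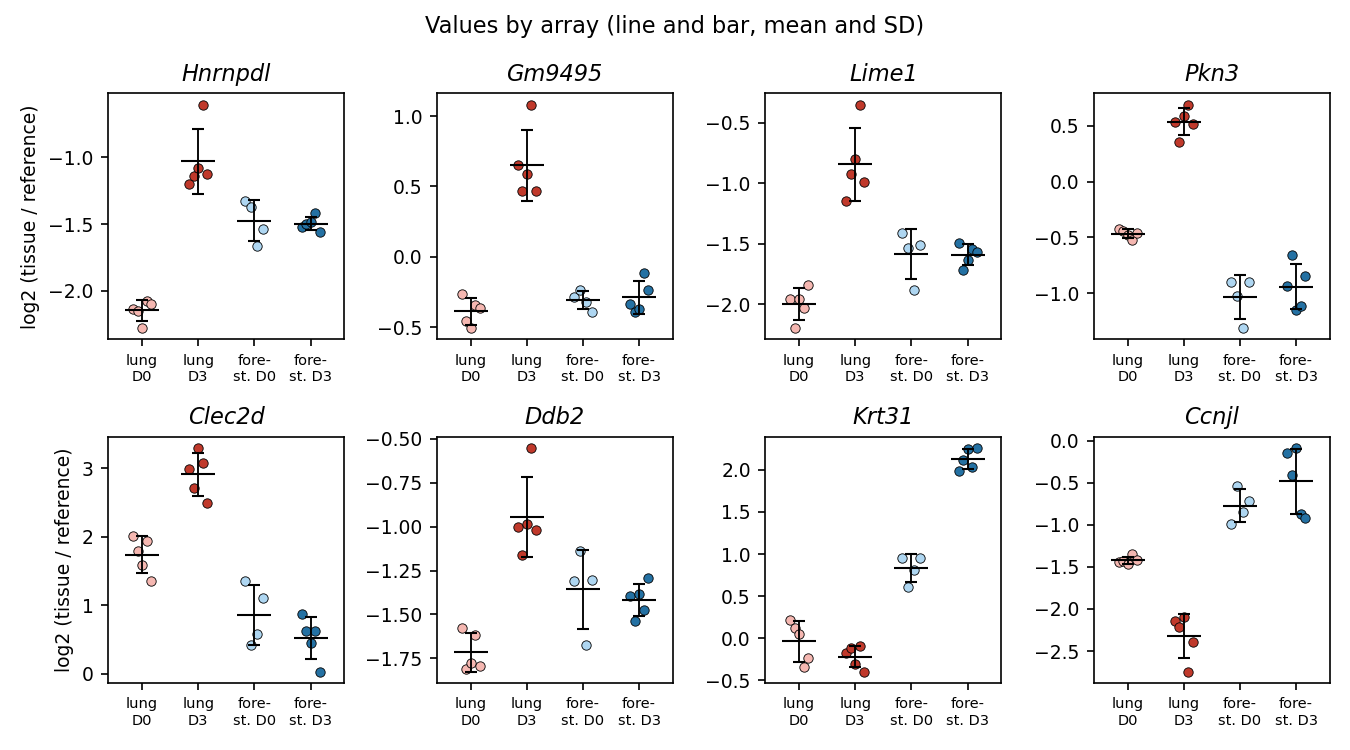
Log2 ratio of tissue over reference RNA (vertical axis) on each array for 8 called genes in the 4 groups (horizontal axis), with the group mean and SD as black lines (n = 5, 5, 4 and 5). The first 6 genes are higher in all D3 lungs than in all D0 lungs, Krt31 is higher in all D3 forestomachs, and Ccnjl is lower in all D3 lungs.

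Clec2d, a C-type lectin recognised by receptors of natural killer cells, had the highest interaction of the 19 (1.52 ± 0.28, adjusted p = 0.0427). Its lung log2 ratio was 2.02, 1.79, 1.58, 1.94 and 1.36 at D0 and 2.99, 2.71, 3.29, 3.08 and 2.49 at D3. Its forestomach log2 ratio was 1.35, 0.42, 0.57 and 1.10 at D0 and 0.87, 0.62, 0.45, 0.62 and 0.03 at D3. The lung rise was 1.17 and the forestomach difference -0.35, with overlapping forestomach groups. The Clec2d call was kept in 6 of 19 fits that left out 1 array (highest adjusted p = 0.127).

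Lime1, an adaptor protein that interacts with the kinase Lck, had lung values of -1.96, -2.20, -1.96, -2.03 and -1.84 at D0 and of -1.15, -0.92, -0.80, -0.35 and -0.99 at D3. Forestomach values were -1.41, -1.54, -1.88 and -1.51, against -1.49, -1.72, -1.64, -1.54 and -1.57. The D3 lungs stood clear of the D0 lungs and the forestomach groups overlapped. Its 2 probes gave interactions of 1.16 ± 0.18 (adjusted p = 0.0173) and 1.04 ± 0.19 (adjusted p = 0.0399).

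Igflr1, a receptor of IGF-like proteins, had an interaction of 1.14 ± 0.20 (adjusted p = 0.0301), with a lung rise of 1.09. Icosl, the ligand of the T cell costimulator ICOS, had 0.80 ± 0.15 (adjusted p = 0.0457), with a lung rise of 0.84. Pkn3, a kinase related to protein kinase C, had lung values of -0.43, -0.44, -0.48, -0.53 and -0.46 at D0 and 0.54, 0.36, 0.59, 0.69 and 0.52 at D3. Forestomach values were -0.90, -1.02, -1.31 and -0.90 at D0 and -0.94, -0.66, -1.15, -1.11 and -0.84 at D3. The lung groups were well apart and the forestomach groups overlapped, and the Pkn3 interaction was 0.91 ± 0.14 (adjusted p = 0.018).

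Mapk8ip3, a scaffold protein of the JNK kinase pathway, had an interaction of 1.18 ± 0.22 (adjusted p = 0.0399) by its brightest probe. A second probe of the gene gave -0.05, so its probes disagreed. Chst3, which adds sulphate to chondroitin, had 0.93 ± 0.17 (adjusted p = 0.0337) with a lung rise of 0.91. Myo9b, an unconventional myosin, had the lowest positive value (0.60 ± 0.12, adjusted p = 0.0457), was called in neither tissue, and had a second probe at 0.25.

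Ddb2 recognises damaged DNA for nucleotide excision repair and was placed in the list of p53 targets, a link not tested here. Its lung values were -1.58, -1.81, -1.78, -1.61 and -1.79 at D0 and -1.002, -1.16, -0.99, -0.55 and -1.02 at D3. The forestomach arrays gave -1.31, -1.14, -1.67 and -1.30 at D0 and at -1.39, -1.54, -1.38, -1.48 and -1.29 at D3. All D3 lungs were above all D0 lungs and the forestomach groups overlapped. The interaction was 0.83 ± 0.16 (adjusted p = 0.0457), and the call was kept in 2 of 19 fits that left out 1 array (highest adjusted p = 0.129).

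Mcm7, a subunit of the replicative DNA helicase, had an interaction of 0.66 ± 0.12 (adjusted p = 0.0337), from a lung difference of 0.44 and a forestomach difference of -0.22, neither of which was called. Nfrkb, a subunit of the INO80 chromatin remodelling complex, had 0.75 ± 0.14 (adjusted p = 0.0337). Zfp346, a zinc finger protein that binds double-stranded RNA, had 0.73 ± 0.12 (adjusted p = 0.0237). Nemp2, a protein of the nuclear envelope, had 0.67 ± 0.13 (adjusted p = 0.0457).

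A further 3 genes were called by a probe that was not their brightest, and are named because of their values. Prpf39, a factor of pre-mRNA splicing, had 0.86 by the called probe (adjusted p = 0.0301) and 0.59 by the brightest (adjusted p = 0.401). Hdac10, a deacetylase, had 0.66 (adjusted p = 0.0159) and 0.57 (adjusted p = 0.0672). Rbm33, an RNA-binding protein, had 1.07 (adjusted p = 0.0253) and -0.01 (adjusted p = 0.995), so its probes disagreed.

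Besides Krt31, 3 genes were more negative in lung. Ccnjl, a cyclin-like protein, was at -1.45, -1.43, -1.46, -1.35 and -1.42 in D0 lungs and at -2.15, -2.21, -2.09, -2.74 and -2.40 in D3 lungs. The forestomach arrays gave -0.99, -0.54, -0.85 and -0.71 at D0 and at -0.14, -0.41, -0.09, -0.87 and -0.92 at D3, where mice 19 and 20 were lowest. The D3 lungs lay below the D0 lungs and the forestomach groups overlapped. The Ccnjl interaction was -1.18 ± 0.23 (adjusted p = 0.0457). Proser2 had -0.79 ± 0.15 (adjusted p = 0.0466), and Erlin1, a protein of the endoplasmic reticulum that helps degrade activated calcium channels, had -0.60 ± 0.11 (adjusted p = 0.0414).

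Of the 34 probes, 10 had no symbol, and 7 of these were placed on intervals of long intergenic transcripts. Positions are those of the array design (mm9). Both probes of chr13:48620882-48643532 were called, with interactions of 1.41 and 1.36. Both probes of chr6:129151512-129208737 were called as well (1.07 and 1.00). A probe of chr5:123582742-123588117 had 1.56, the highest of all 34. In lung these 5 probes rose by 0.84 to 1.40. The transcripts AK160312 and AK082896 had 1.36 and 1.22. The remaining intervals were chr5:74487385-74497428 (0.64, from a forestomach difference of -0.55) and chr4:149383134-149451259 (-1.23, from a lung difference of -1.26). For chr5:74487385-74497428 the Cy3 reference signal had an interaction of -1.49 by limma (adjusted p = 3.87e-07), larger in size than that of the ratio. Its call therefore cannot be read as a change of tissue RNA.

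**Figure D4:**
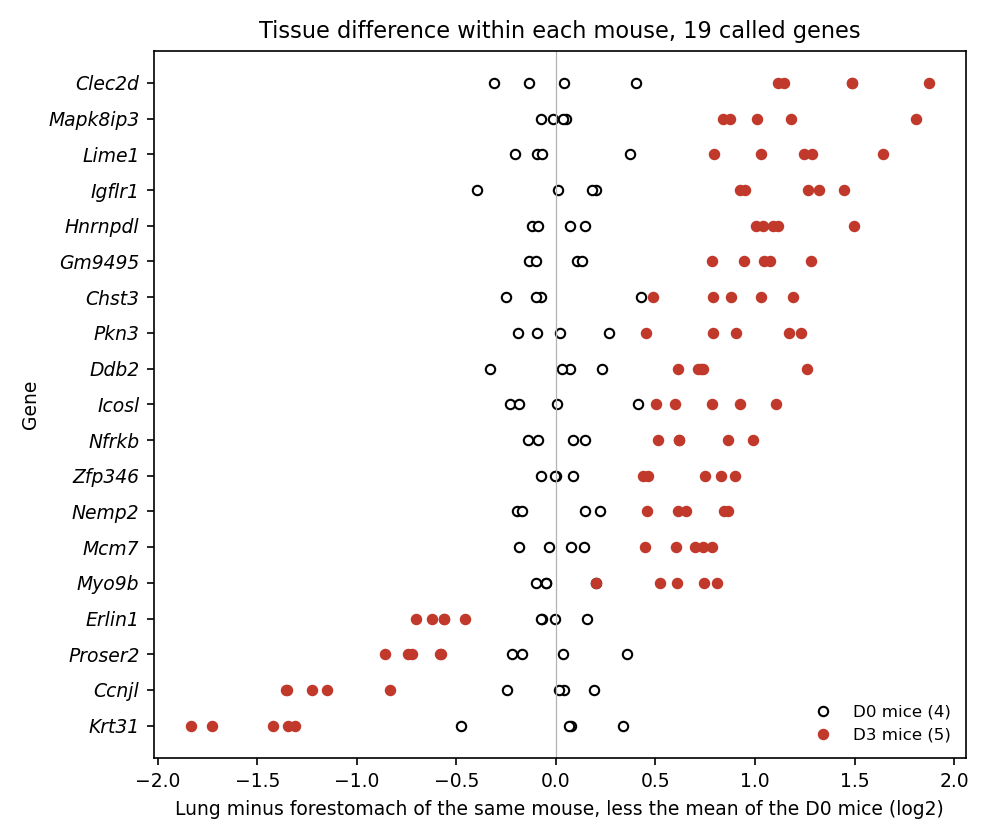
Lung minus forestomach difference of each mouse (horizontal axis, log2 units, less the mean of the D0 mice) for the 19 called genes (vertical axis), with D0 mice open (n = 4) and D3 mice filled (n = 5). The D0 and D3 mice do not overlap for any of these genes except Myo9b, where the lowest D3 mouse falls just short of the highest D0 mouse.

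The same interaction at the lower doses shares the D0 arrays with the D3 comparison, so the values are set side by side only. At D2 28 probes were called (0.105%), 27 more positive in lung and 1 more negative (0.00376%), and at D1 0 were called by limma (0%), with 1157 at an unadjusted p under 0.05. Hnrnpdl had interactions of 0.20 at D1, 1.01 at D2 and 1.14 at D3. Lime1 had 0.48, 1.08 and 1.16, Clec2d 0.40, 1.55 and 1.52, and Ddb2 0.11, 0.53 and 0.83. Krt31 had 0.03, 0.01 and -1.48. At D1 the 28 probes more positive at D3 had interactions of 0.11 to 0.48. In liver, 29 of the 34 probes were measured and 0 were called at D3 by limma (smallest adjusted p = 0.0705). The liver differences of these 29 ran from -1.18 (AK160312) to 0.38 (Krt31), so the absence of calls does not show that liver was unchanged.

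Most of the few probes called in forestomach were also called in lung in the same direction. They were 7 of 10, where 1.6% of all probes were called in lung in either direction. These were Hspa8 by both its probes, Dnaja1, Nfil3, Srsf5, XM_918536 and XR_030775. The Hspa8 probes, XM_918536 and XR_030775 had nearly equal differences (-0.98 to -0.94 in lung, -0.98 to -0.91 in forestomach). Whether they detect separate transcripts was not tested. Hspa8, the constitutive Hsp70 chaperone, was at 1.15, 0.78, 1.12, 0.86 and 1.02 in D0 lungs and at -0.07, 0.12, 0.10, -0.04 and 0.09 in D3 lungs. The forestomach arrays gave 0.39, 0.36, 0.90 and 0.15, against -0.33, -0.64, -0.56, -0.40 and -0.36. The groups were apart in both tissues, by -0.95 in lung and -0.91 in forestomach. The interaction was -0.03, with a 95% interval of -0.39 to 0.32. Nfil3, a repressor in the circadian clock, fell by 1.00 in lung and by 1.05 in forestomach, with an interaction of 0.05 (95% interval -0.41 to 0.52). Srsf5, a splicing factor, rose by 1.47 in lung and 0.91 in forestomach (interaction 0.56, 95% interval 0.21 to 0.91, adjusted p = 0.32).

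Heat shock genes encode chaperones that refold proteins under stress and are driven by heat shock factor through heat shock elements. Of 28 tested, 8 were called lower in lung at D3 (0.45% of all genes were) and 2 in forestomach, Hspa8 and Dnaja1 (0.0225% of all genes). Without the 6 arrays named above the count was 8 in lung and 0 in forestomach. No interaction was called by limma. With Agilent's processed signals 1 was called, where 13 of all 13321 genes were. An unadjusted p under 0.05 was found for 3 of the 28, near the share over all genes (1206 of 13321). The median interaction of the 28 was -0.09, against 0.02 over all genes. The inducible Hsp70 gene Hspa1a was at 3.66, 2.64, 2.91, 2.07 and 1.46 in D0 lungs and at -0.34, -0.34, -0.50, -0.42 and -0.53 in D3 lungs. In forestomach it was at 4.58, 2.85, 5.11 and 4.25 at D0 and 3.44, 3.26, 3.31, 2.27 and 1.72 at D3. The lung groups were far apart, and in forestomach D0 mouse 2 lay within the D3 range. The D0 arrays were widely spread in both tissues, and the interaction of -1.58 ± 0.61 was not called (adjusted p = 0.493). Dnaja1, a co-chaperone of Hsp70, fell by 1.76 in lung and by 1.32 in forestomach.

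The promoters of these chaperone genes are shown with that of Cyp1a1 and those of Hnrnpdl and Krt31, the called genes with the smallest adjusted p. They are the 250 bases before the start in RefSeq (GRCm38.p6), written 5′ to 3′ on the strand of the gene. Capitals mark the heat shock element core (GAANNTTC or TTCNNGAA) in Hspa1a (chr17:34972157-34972406) and Dnaja1 (chr4:40722218-40722467, the first of 3 starts listed). They mark the AhR element core (GCGTG or CACGC) in Cyp1a1 (chr9:57697363-57697612) and Hnrnpdl (chr5:100039223-100039472), where 2 of its 3 matches overlap. Neither was found in Krt31 (chr11:100050552-100050801).
Hspa1a: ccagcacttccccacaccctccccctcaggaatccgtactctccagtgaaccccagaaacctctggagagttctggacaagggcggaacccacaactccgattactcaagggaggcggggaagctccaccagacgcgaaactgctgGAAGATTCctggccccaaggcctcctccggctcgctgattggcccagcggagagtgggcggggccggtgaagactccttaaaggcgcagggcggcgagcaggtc
Dnaja1: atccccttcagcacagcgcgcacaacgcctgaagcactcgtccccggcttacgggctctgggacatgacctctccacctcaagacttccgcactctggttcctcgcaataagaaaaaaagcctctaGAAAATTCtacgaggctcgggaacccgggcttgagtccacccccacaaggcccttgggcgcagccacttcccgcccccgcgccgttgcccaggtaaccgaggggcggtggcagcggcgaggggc
Cyp1a1: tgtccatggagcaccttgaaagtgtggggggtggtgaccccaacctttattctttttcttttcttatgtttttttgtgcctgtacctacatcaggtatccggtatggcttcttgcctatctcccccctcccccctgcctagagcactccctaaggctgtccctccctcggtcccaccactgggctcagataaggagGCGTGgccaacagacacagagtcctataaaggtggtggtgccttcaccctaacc
Hnrnpdl: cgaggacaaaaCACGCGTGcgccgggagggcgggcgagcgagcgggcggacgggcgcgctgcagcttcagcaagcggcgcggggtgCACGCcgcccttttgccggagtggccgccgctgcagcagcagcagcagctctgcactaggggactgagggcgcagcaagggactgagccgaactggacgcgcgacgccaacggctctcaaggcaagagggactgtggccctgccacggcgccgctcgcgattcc
Krt31: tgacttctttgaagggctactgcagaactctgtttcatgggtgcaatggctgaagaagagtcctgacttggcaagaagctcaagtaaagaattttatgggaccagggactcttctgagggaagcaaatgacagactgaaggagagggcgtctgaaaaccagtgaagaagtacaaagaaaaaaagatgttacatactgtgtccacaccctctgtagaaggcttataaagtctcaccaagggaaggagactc
Over all 32851 promoters of the table (250 bases before to 50 after the start, both strands), 15.1% held the heat shock element core, 32.4% the AhR element core, 7.15% the E-box CACGTG and 0.938% the D-box TTATGTAA or TTACATAA. Of the 15 genes more positive in lung, 14 had a promoter in the table. Of these, 0 held the heat shock element core, 6 the AhR element core, 0 the E-box and 0 the D-box. Of the 4 genes more negative in lung, 2 held the AhR element core, 1 the E-box and 0 either of the others. Of the 8 heat shock genes lower in lung, 7 had a promoter in the table, and 5 of them held the heat shock element core. By promoter, 6 of the 11 listed for these 7 genes held it. Of all 28 heat shock genes tested, called or not, 22 had a promoter in the table. Of these, 12 held the core (14 of 29 promoters). The core was thus common over the whole list and not particular to the genes lower in lung. A gene was counted if any of its promoters held the motif, whereas the shares over the table are of promoters, so the measures differ. A match is a run of letters and not a site shown to be used.

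Output genes of the circadian clock oscillate over the day. Of 10 tested, 7 were called higher in lung (1.28% of all genes were) and 0 in forestomach. No interaction was called by limma, and 1 of the 10 had an unadjusted p under 0.05 (1206 of all 13321 genes did). Dbp, a clock-driven transcription factor, was at 0.31, 0.91, -0.81, 0.65 and -0.59 in D0 lungs and at 1.62, 1.98, 1.74, 1.68 and 2.56 in D3 lungs. The corresponding forestomach values were -0.33, -0.46, -1.93 and 0.39 at D0 and at 1.01, 1.32, 1.19, 1.22 and 1.23 at D3. All D3 arrays exceeded all D0 arrays in both tissues. The interaction was 0.05, but its 95% interval of -1.04 to 1.14 was wide. The hour of death of each mouse was not given in the sources used here, so its part in these values was not tested. Of 4 clock genes of opposite phase, 3 were called lower in lung (Arntl, Clock and Nfil3; 0.45% of all genes) and 1 in forestomach (Nfil3; 0.0225% of all genes). Without lung mice 5 and 16, 2 were called lower and 1 higher in lung, and without all 6 arrays 0 were called in forestomach.

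Of 28 tested genes of nuclear RNA processing and nuclear long RNAs, 8 were called higher in lung (1.28% of all genes) and 0 in forestomach, and 21 had an interaction above 0 (7297 of all 13321 genes did). No interaction was called by limma. An unadjusted p under 0.05 was found for 15 of the 28, and for 1206 of all 13321 genes. The median interaction was 0.34. Clk1, a kinase that phosphorylates splicing factors, was at -0.05, -0.51, -0.34, -0.30 and -0.14 in D0 lungs and at 0.24, 0.52, 0.60, 0.98 and 0.73 in D3 lungs. The corresponding forestomach values were 0.31, 0.36, 0.01 and 0.18, against -0.01, 0.07, 0.17, 0.34 and 0.38. The lung groups were apart and the forestomach groups overlapped, with an interaction of 0.91 (adjusted p = 0.0574). Neat1, the long RNA that scaffolds nuclear paraspeckles, had 1.92 (95% interval 0.95 to 2.88, adjusted p = 0.161). Its D3 lungs were at -0.41, -0.21, -0.25, 1.75 and -0.66, so mouse 19, which was also highest for Hnrnpdl, Lime1 and Ddb2, stood far above the rest. Small nuclear and nucleolar RNAs went the opposite way in lung, with 3 of 7 called lower (0.45% of all genes) and a median interaction of -0.38.

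**Figure D5:**
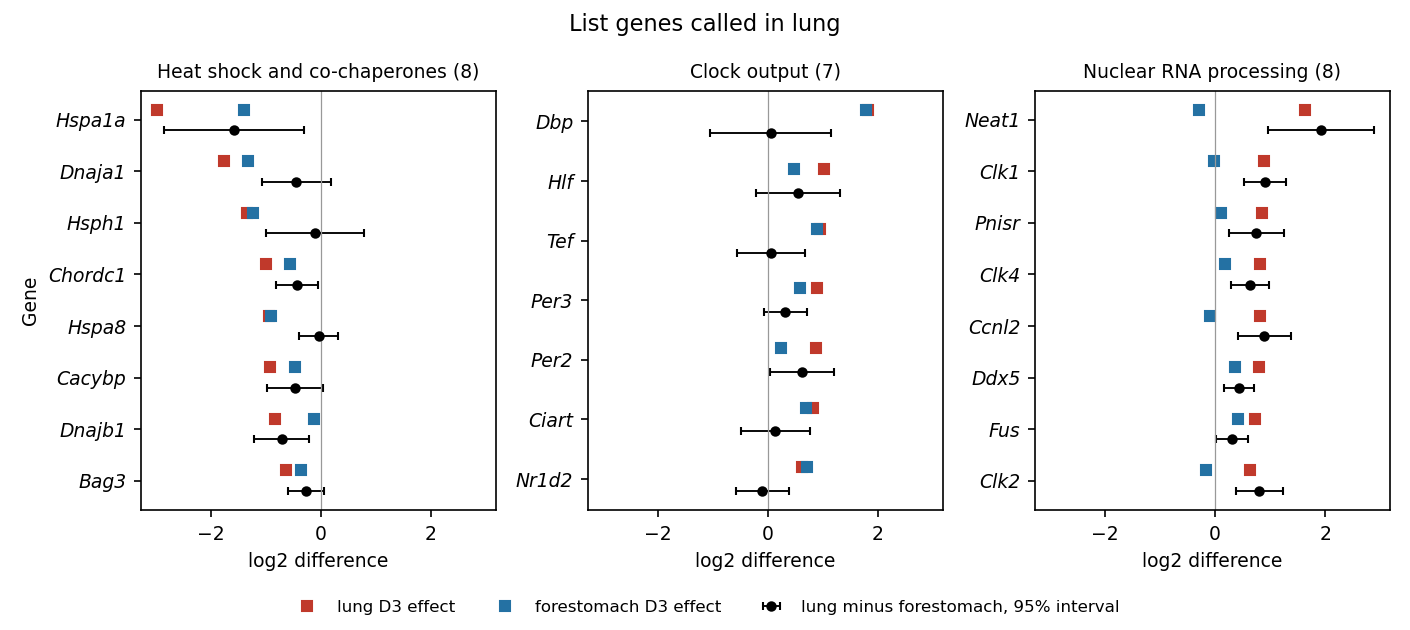
Lung (red) and forestomach (blue) D3 minus D0 differences and their interaction with its 95% interval (black), in log2 units (horizontal axis), for the genes of 3 lists that were called in lung (vertical axis). Hspa8 and Dbp lie at nearly the same difference in both tissues, whereas the nuclear RNA processing genes lie nearer 0 in forestomach. The genes were picked by their lung call, which by itself favours a larger difference in lung, so this contrast is no evidence of a tissue difference.

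No gene of the AhR battery passed the threshold for a difference between tissues. Of 9 tested, 0 had a called interaction by limma and 3 had an unadjusted p under 0.05 (1206 of all 13321 genes did). Cyp1a1 was at 3.07, 2.78, 2.70, 1.60 and 2.22 in D0 lungs and at 1.55, 1.72, 0.73, 1.34 and 0.68 in D3 lungs. In forestomach it was at 0.75, 0.06, 0.52 and 1.13 at D0 and at 2.20, 1.43, 1.22, 0.16 and 0.25 at D3. It was lower in D3 lungs with 1 D3 value above the lowest D0 value, and in forestomach the D3 arrays overlapped the controls and spread more widely, with mice 19 and 20 lowest of the D3 mice. Cyp1a1 was well above background on 3 of 4 D0 and 3 of 5 D3 forestomachs. Its forestomach level is thus close to the lower limit of the measurement, which also bears on the interaction. The lung difference was -1.27 (adjusted p = 0.0421), the forestomach difference 0.44 (adjusted p = 0.943) and the interaction -1.71 ± 0.52 (adjusted p = 0.335). Cyp1b1 went the other way, with a lung rise of 0.66 (adjusted p = 0.00955), a forestomach difference of -0.16 and an interaction of 0.81 ± 0.20 (adjusted p = 0.194). Ahrr, the repressor of AhR, had 0.54 ± 0.24 (adjusted p = 0.564). It was well above background on 1 of 5 D0 lungs and 5 of 5 D3 lungs, so it passed the lung filter mainly through D3, and its D0 lung level is close to the lower limit of the measurement. Without lung mice 5 and 16, 0 genes of this list were called in lung by limma. Cyp1a1 and Cyp1b1 thus did not keep their lung calls in that fit. When forestomach mice 2, 17, 19 and 20 were left out as well, 1 listed gene was called lower in lung and 0 higher.

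Of 24 tested genes of the p53 target list, 1 had a called interaction, Ddb2 (0.143% of all genes), and the median was -0.02. The count was 0 with Agilent's processed signals, without lung mice 5 and 16, and without forestomach mice 2, 19 and 20. Cdkn1a, the cell cycle inhibitor p21, was at -0.57, -0.54, -0.98, -0.87 and -0.26 in D0 lungs and at -1.37, -1.06, -1.23, -1.42 and -1.61 in D3 lungs. The corresponding forestomach values were 0.54, 0.90, 0.63 and 0.69, against 0.68, 0.70, 0.69, 0.85 and 0.84. The D3 lungs were lower than every D0 lung, by 0.69 on average, and the interaction was -0.75 ± 0.18 (adjusted p = 0.162). Mdm2, Bax and Ccng1 had interactions of 0.17, 0.24 and -0.14, each with a 95% interval across 0.

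All 11 tested B cell markers had an interaction above 0 (7297 of all 13321 genes did), with a median of 0.41. Of the 11, 0 were called by limma and 3 had an unadjusted p under 0.05 (1206 of all 13321 genes did). Over the 20 B cell genes the mean log2 ratio was 0.59 to 1.06 in D0 lungs and 1.16 to 1.39 in D3 lungs, and these ranges did not overlap. In forestomach it was -0.82 to -0.42 at D0 and -0.81 to -0.66 at D3. Over 20 T cell genes it was -0.40 to -0.05 in D0 lungs and -0.14 to 0.04 in D3 lungs, except for D3 mouse 17 (1.18). The part of these cells in the values of Clec2d, Lime1 and Icosl was not tested. The 6 fat markers tested had a median interaction of 2.08, from a forestomach median of -2.13 and a lung median of 0.02, and 0 were called. Without forestomach mice 2, 19 and 20, 2 of the 6 were called, and without all 6 arrays 0 were. Centring each array on its median moved the median interaction of all genes from 0.02 to 0.33 and left 0 genes of any list called in either tissue by limma.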

How the data were processed

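Lung and forestomach RNA of Muta™Mouse animals was hybridised on two-colour Agilent arrays against a common reference, without dye swaps. The authors normalised median signals by LOWESS without background correction, and their deposited table of log2 ratios (58 arrays) was used as given. Per the file headers, the scanner files hold intensity values and detection flags, which served for the filter and for alternatives; a separate loess on them gave r of 0.996 to 0.998 with the deposited log2 ratios. The log10 ratios deposited in the same files, which Feature Extraction made from background-subtracted, dye-normalised signals, served as an alternative. Arrays were grouped by the labels. The study tested with MAANOVA, which was not installed, so limma 3.58.1 in R 4.3.3 was fitted to 4 groups, with contrasts for the interaction and for each tissue. D1 and D2 interactions came from a fit of all lung and forestomach arrays. Symbols came from RefSeq (GRCm38.p6) by accession: 26413 of 55681 probes matched. Named genes were the 15 most positive and 15 most negative called representative probes above background on at least 3 arrays of each group, called list genes, and Cyp1a1, Cyp1b1, Ahrr, Cdkn1a and Hspa1a. Other genes were named after their values were seen. The members and lists were chosen with earlier results of these data known. Lists are described by counts, medians and no test. Alternatives covered normalization (normexp used median signals, offset 50), filter, samples, slide and mouse blocks, and leaving out arrays. Same-numbered arrays come from 1 animal by the labels, yet their deviations from group means correlated with r of -0.136 to 0.16. The number of arrays limits the precision. None of the called probes was saturated. Scripts were tested on simulated data. Sequences came from the RefSeq promoter table. Figures used matplotlib 3.10.9.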

Additional observations from a re-analysis of the deposited data

Results flagged for a closer look

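The tissues differed in the high-dose effect for 34 probes, by the test of the difference itself. The same test marked the 15 genes more positive in lung: Clec2d (1.52), Mapk8ip3 (1.18), Lime1 (1.16), Igflr1 (1.14), Hnrnpdl (1.14), Gm9495 (1.02), Chst3 (0.925), Pkn3 (0.909), Ddb2 (0.831), Icosl (0.802), Nfrkb (0.75), Zfp346 (0.729), Nemp2 (0.672), Mcm7 (0.663) and Myo9b (0.604), each in log2 units. It marked 4 genes more negative in lung: Krt31 (-1.48), Ccnjl (-1.18), Proser2 (-0.788) and Erlin1 (-0.602).

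Single arrays stood apart from their group in 4 of the 96 gene and group pairs examined, and chance marks about 1 in 20 such groups. The lung of D3 mouse 19 was at -0.604 for Hnrnpdl, with the next D3 lung at -1.08. The same lung was at -0.553 for Ddb2, with the next at -0.986. The forestomach of D0 mouse 2, whose array was high in glandular stomach markers, was at 1.41 for Icosl, with the next at 1.81. The lung of D0 mouse 2 was at -0.834 for Nemp2, with the next at -0.548.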

How the results depend on the processing

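The main count of 34 D3 interaction calls stayed within 1.5 times (23 to 45) under a separate loess, normexp, Agilent's processed signals, other detection filters, no minimum fold, array weights, a random mouse block and the loss of lung mice 5 and 16, the last chosen after seeing the data. It was 0 with median centring, which moved the median interaction of all probes to 0.26, but 90 (87 more positive) with median centring and a slide block, also chosen after seeing the data. With the mouse as a fixed replicate block it was 0, with a random replicate block 39, and with a random replicate block and slide 123. It was 76 for Cy5 alone, 66 with all 58 arrays in the fit and 91 with a slide block. After the data had been seen, leaving out forestomach mice 2, 19 and 20 gave 59 and leaving out 6 arrays gave 20. Leaving out 1 array at a time gave 4 to 70 for the interaction at D3, 2 to 35 at D2, 0 at D1, 266 (without D3 mouse 19) to 513 for lung and 9 to 78 (without D0 mouse 2) for forestomach. The lung count of 426 was 0 with median centring, 657 with Agilent's processed signals and 1543 with no minimum fold. The forestomach count of 10 was 0 with median centring, 56 for Cy5 alone, 16 with all 58 arrays, 16 with a slide block and 52 without forestomach mice 2, 19 and 20. The D2 count of 28 was 1 with median centring, 14 with processed signals, 18 with array weights, 47 with a slide block, 12 with a fixed replicate block and 63 with a random replicate block and slide. A similar count did not mean the same probes. Of the 34, 18 were kept with Agilent's processed signals and 21 without a detection filter. With Agilent's processed signals 9 of the 19 genes lost the call, among them Clec2d, Mapk8ip3, Ddb2 and Icosl. For the calls lost or gained, the cause was not tested.

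None of the 19 called genes changed sign under any of these settings. Median centring moved the median interaction of all genes from 0.02 to 0.33. Relative to this median, the nuclear RNA processing list (0.69) stayed above and the heat shock list (0.28) stayed below. Other lists changed side. Clock output went from above (0.07) to below (0.30). The clock genes of opposite phase (-0.06 to 0.35), the SR splicing factors (-0.01 to 0.39) and the p53 targets (-0.02 to 0.35) went from below to above. The forestomach had 4 control arrays, of which 1 was high in glandular markers.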
